A study of Mus musculus with 12 samples.

Results

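The genes described are the T cell receptor complex and the kinases and adaptor that act directly behind it: Cd3d, Cd3e, Cd3g, Cd247, Trac, Trbc1, Trbc2, Zap70, Lck and Lat. They were chosen by symbol, and all 10 are among the 30263 genes of the colon tables. RNA was sequenced from whole colons of C57BL/6 mice of 2 genotypes, labelled WT and labelled S1PR4 KO, with 3 libraries of each. S1PR4 is a receptor for the lipid sphingosine-1-phosphate that is found mainly on blood-forming and immune cells. Every mouse had received the carcinogen azoxymethane (AOM, 10 mg/kg, injected into the abdomen) at day 0 and the irritant dextran sulfate sodium (DSS, 0.5% in the drinking water) at days 1 to 6, 21 to 27 and 47 to 52, a model of colitis-associated colon tumors. The colons date from day 84. The comparison is thus between genotypes under this treatment, and no untreated colon was analysed here. The labels give neither the age of the mice nor the kind of knockout allele, nor whether each library is 1 mouse. The series also has 6 libraries of CD8+ T cells sorted from PyMT mammary tumors, 3 labelled WT and 3 labelled S1PR4 KO. None of the 10 genes is among the 357 genes of those tables, so all values below are from colon.

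Conventional T cells recognise peptides through a receptor made of an alpha and a beta chain, whose constant parts are encoded by Trac and by Trbc1 or Trbc2. These chains have almost no cytoplasmic tail, so they signal through the CD3 delta, epsilon and gamma chains and the zeta chain (Cd247), which carry tyrosine motifs. Lck, a Src-family kinase bound to the coreceptors CD4 and CD8, phosphorylates these motifs, Zap70 docks on them and is activated, and Zap70 then phosphorylates Lat, a membrane adaptor that assembles the enzymes for calcium and Ras signalling. In the colon such T cells lie in the epithelium, the lamina propria and the lymphoid follicles.

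The total of gene counts per colon library ran from 7304082 to 8652561. Levels are given as CPM, a gene's counts relative to the scaled total of its library. S1pr4 itself, the targeted gene, had 61, 47 and 25 counts in labelled WT and 154, 162 and 118 counts in labelled KO, so it was higher in the libraries labelled KO and goes against these labels. The counts cover the whole gene, and the labels do not say which part the allele lacks. All directions below rest on the labels. The libraries also fall into sets by sex-linked genes: WT1, KO2 and KO3 (replicates are named by label and number) had 515 to 591 CPM of Xist and at most 0.118 CPM of the Y-linked gene Ddx3y. WT2, WT3 and KO1 had at most 6.75 CPM of Xist and 63.3 to 81.1 CPM of Ddx3y. Each set therefore has 1 library of one label and 2 of the other.

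All 10 genes passed the filter on low counts, and none passed the test between labels (edgeR quasi-likelihood, Benjamini-Hochberg adjusted p from 0.829 to 0.986 over 17195 genes). Among all tested genes the share called was 0%, and the smallest adjusted p was 0.641. At an unadjusted p under 0.05, edgeR took 1 of the 10, Zap70, against 5.06% of all tested genes. DESeq2 called none of the 10 and 0.105% of all genes (18 genes; 0.0407% with labelled KO higher), and took 1 of the 10 at an unadjusted p under 0.05, against 5.34%. With limma-voom the adjusted count was again 0 of 10 and 0% of all genes, and the unadjusted count was 3 of 10 against 24.4%. The mean was higher in labelled KO for 9 of the 10 (Cd3e was the exception) and for 49% of all tested genes. The median fitted log2 difference of the 10 was 0.35, beside -0.0045 over all tested genes. That median was 0.70 without WT1, 0.59 without KO3, 0.23 without KO1 and 0.19 without WT3, and 0.82 with limma-voom. Groups did not overlap for 1 of the 10, Trbc2, against 9.58% of all genes in either direction and 4.55% with labelled KO higher. In whole colon, the number of T cells and the RNA per T cell cannot be told apart.

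**Figure D1:**
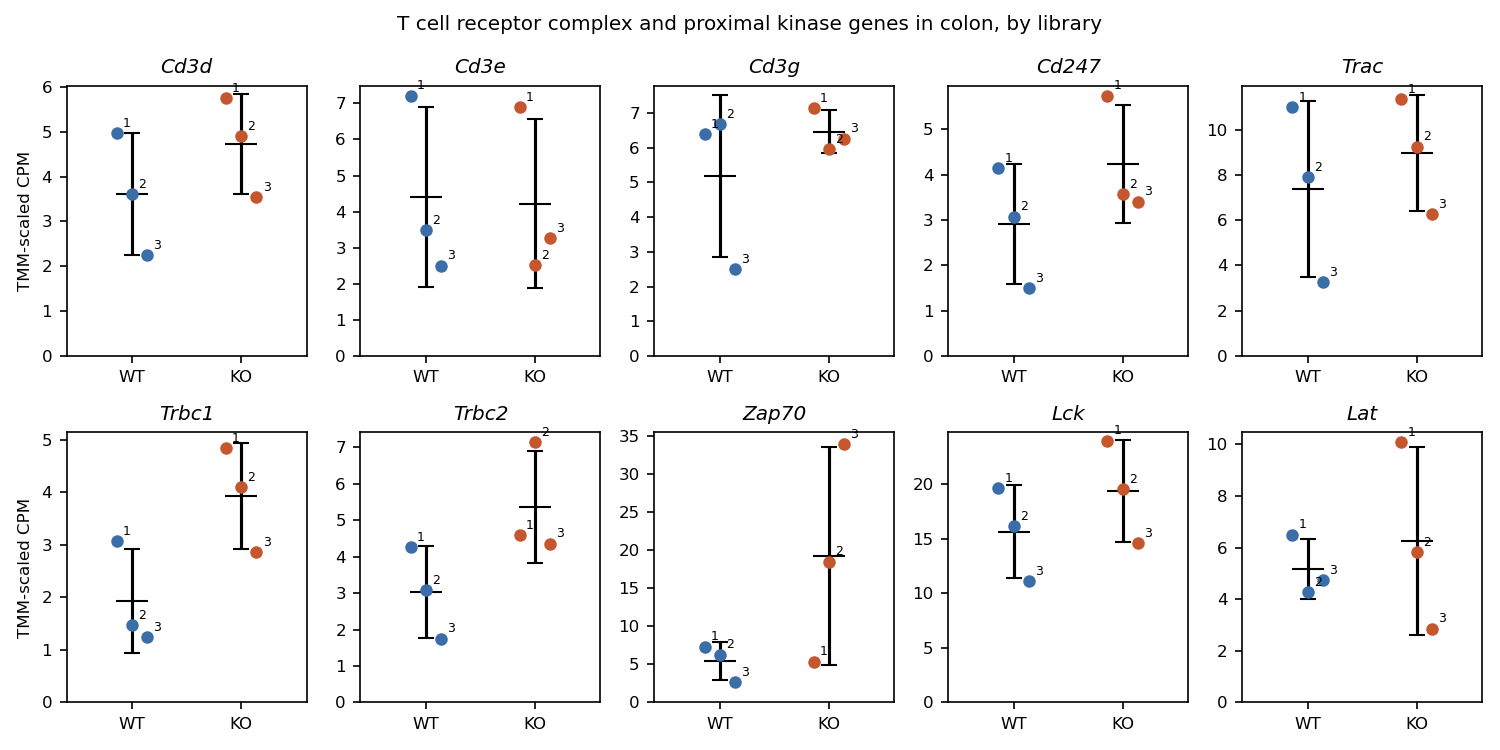
CPM of each of the 10 genes in the 6 colon libraries, with the mean and SD of the 3 libraries of each label. Zap70 spans 2.63 to 33.9 CPM, and labelled KO and labelled WT overlap for every gene except Trbc2.

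The 3 CD3 genes, whose products form the signalling dimers around the receptor, lie together on chromosome 9 (GRCm38): Cd3g at 44969572 to 44980431 on the minus strand, Cd3d at 44981786 to 44987339 on the plus strand and Cd3e at 44998740 to 45009627 on the minus strand. Cd3g and Cd3d are transcribed away from each other, and their starts are 1.35 kb apart.

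Cd3d, the delta chain, had 4.97, 3.61 and 2.25 CPM in labelled WT and 5.74, 4.89 and 3.54 CPM in labelled KO. The ranges overlap, with WT3 lowest and KO1 highest. The group means were 3.61 ± 1.36 and 4.73 ± 1.11 CPM (SD, n = 3 each), a log2 difference of 0.39 ± 0.36 (SE; edgeR adjusted p = 0.861).

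Cd3g, the gamma chain, had 6.39, 6.69 and 2.50 CPM in labelled WT and 7.15, 5.95 and 6.26 CPM in labelled KO. WT3 is the low library, and the others lie close together. The log2 difference was 0.31 ± 0.39 (SE; edgeR adjusted p = 0.884), and without WT3 it was -0.0056.

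Cd3e, the epsilon chain, which pairs with both delta and gamma, had 7.22, 3.48 and 2.50 CPM in labelled WT and 6.89, 2.51 and 3.27 CPM in labelled KO. One library of each label, WT1 and KO1, stood at about the same high level, and the other 4 lay lower. The means were 4.40 ± 2.49 and 4.22 ± 2.34 CPM (SD, n = 3 each), a log2 difference of -0.06 ± 0.55 (SE; edgeR adjusted p = 0.986). The sign turned without WT1 (0.51), without KO2 (0.21) or without KO3 (0.10). The ratio of Cd3e to Cd3g counts was 1.13, 0.520 and 1.00 in labelled WT and 0.964, 0.422 and 0.522 in labelled KO. It was thus highest in WT1 and WT3 and lowest in KO2.

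Cd247 is on chromosome 1 (165788681 to 165877277, plus strand) and encodes zeta, the chain with the most tyrosine motifs. It had 4.14, 3.08 and 1.50 CPM in labelled WT and 5.74, 3.57 and 3.40 CPM in labelled KO, again with WT3 lowest and KO1 highest, and the groups overlapped. The log2 difference was 0.54 ± 0.43 (SE; edgeR adjusted p = 0.850). Its exons share 3007 bases with those of Pou2f1, a gene on the opposite strand with 424 to 750 counts per library, against 12 to 45 for Cd247. How strand was counted is not given in the sources used here, so the Cd247 values are uncertain. Pou2f1 itself had a log2 difference of 0.03 ± 0.22 (SE).

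Trac, the alpha constant gene (chromosome 14, 54220521 to 54224206, plus strand), had 11.0, 7.89 and 3.25 CPM in labelled WT and 11.4, 9.26 and 6.26 CPM in labelled KO. WT1 and KO1 were nearly equal at the top, and WT3 was lowest. The log2 difference was 0.28 ± 0.47 (SE; edgeR adjusted p = 0.916), and it was -0.065 without WT3.

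The beta constant genes Trbc1 (41538218 to 41539881) and Trbc2 (41546730 to 41548352) lie on the plus strand of chromosome 6 with starts 8.51 kb apart. They are near-copies, and the sequences show how far reads can tell them apart. The first exons are identical at 374 of 375 bases. The stretch around that 1 difference (capital letter; GRCm38, GENCODE vM21 transcripts) reads
Trbc1 chr6:41538447-41538506: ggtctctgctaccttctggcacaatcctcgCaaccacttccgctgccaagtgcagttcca
Trbc2 chr6:41546959-41547018: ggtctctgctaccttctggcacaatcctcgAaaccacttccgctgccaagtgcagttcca
Most of the coding differences are in the third exon, which has 15 of the 23 and is shown with the differing bases in capitals:
Trbc1 chr6:41539229-41539335: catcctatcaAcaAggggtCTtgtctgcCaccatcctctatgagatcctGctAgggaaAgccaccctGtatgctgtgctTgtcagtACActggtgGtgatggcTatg
Trbc2 chr6:41547772-41547878: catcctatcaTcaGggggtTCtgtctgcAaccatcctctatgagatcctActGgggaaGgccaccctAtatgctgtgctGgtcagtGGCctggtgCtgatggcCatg
Over the coding exons 495 of 518 bases are identical (95.6%), with an identical run of 259 bases, while the part after the coding sequence is 48.6% identical. Reads from the identical run cannot be assigned to one gene, so each gene's values are uncertain and their sum is given too.

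Trbc1 had 3.08, 1.47 and 1.25 CPM in labelled WT and 4.85, 4.10 and 2.86 CPM in labelled KO. The lowest labelled KO library lay just below WT1, and the other labelled WT libraries were lower. The means were 1.93 ± 0.996 and 3.94 ± 1.01 CPM (SD, n = 3 each), a log2 difference of 1.02 ± 0.42 (SE; unadjusted p = 0.0508, edgeR adjusted p = 0.829).

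Trbc2 had 4.26, 3.08 and 1.75 CPM in labelled WT and 4.60, 7.14 and 4.36 CPM in labelled KO. Every labelled KO library stood above every labelled WT library, by a margin of 4.26 against 4.36 CPM at the nearest. In counts that nearest pair, WT1 and KO3, had 36 and 32, and KO1 had 36, so this separation is within counting error. The log2 difference was 0.82 ± 0.39 (SE; edgeR adjusted p = 0.829).

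Summed, Trbc1 and Trbc2 had 7.33, 4.55 and 3.001 CPM in labelled WT and 9.45, 11.2 and 7.22 CPM in labelled KO, where KO3 lay just under WT1. The means were 4.96 ± 2.20 and 9.30 ± 2.02 CPM (SD, n = 3 each), and the summed counts fitted as 1 gene had a log2 difference of 0.90 ± 0.37 (SE; edgeR adjusted p = 0.829). The ratio of summed beta to alpha constant counts was 0.667, 0.576 and 0.923 in labelled WT and 0.831, 1.21 and 1.15 in labelled KO. Beta was thus highest against alpha in KO2 and KO3, and KO1 was below WT3. The counts behind these values are small: the lowest, 10 counts of Trbc1 in WT3, has an exact 95% Poisson interval of 4.79 to 18.4 counts, and such intervals cover counting error only.

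The variable segments, which are joined to the constant genes by recombination, were counted for 58 listed genes, none of which passed the filter on low counts. Their summed counts were 63, 49 and 13 in labelled WT and 63, 38 and 39 in labelled KO. The number of segments with any count was 30, 27 and 7 in labelled WT and 29, 20 and 20 in labelled KO. WT3 was lowest in both, as for the constant genes. The segments with the most counts over all libraries were Trbv13-2 (23), Trgv2 (21) and Trbv3 (18).

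Of the kinases, Lck is on chromosome 4 (129548344 to 129573641, minus strand) and had the most counts of the 10 genes in 5 of the libraries. It had 19.6, 16.2 and 11.1 CPM in labelled WT and 24.0, 19.6 and 14.6 CPM in labelled KO. Libraries of the 2 labels alternate along this range, with WT3 lowest and KO1 highest. The means were 15.6 ± 4.28 and 19.4 ± 4.72 CPM (SD, n = 3 each), a log2 difference of 0.31 ± 0.28 (SE; edgeR adjusted p = 0.860).

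Zap70 is on chromosome 1 (36761798 to 36782818, plus strand). It had 7.33, 6.29 and 2.63 CPM in labelled WT and 5.36, 18.5 and 33.9 CPM in labelled KO. KO2 and KO3 stood far above the other 4 libraries, while KO1 lay inside the labelled WT range, so the groups overlapped. In counts these were 62, 47 and 21 against 42, 140 and 249, and the 95% Poisson intervals of KO1 (30.3 to 56.8) and KO3 (219.0 to 281.9) are far apart. The means were 5.42 ± 2.47 and 19.3 ± 14.3 CPM (SD, n = 3 each), a log2 difference of 1.83 ± 0.71 (SE; unadjusted p = 0.0414, edgeR adjusted p = 0.829; DESeq2 adjusted p = 0.677). Leaving out KO3 gave 1.15 and leaving out KO1 gave 2.27. KO2 and KO3 are both Xist-high: with that status as a covariate the log2 difference was 1.09.

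Set against the receptor, the Zap70 count was 0.395, 0.456 and 0.362 of the summed Cd3d, Cd3e and Cd3g counts in labelled WT. In labelled KO it was 0.271, 1.39 and 2.59. The same ratio for Lck stayed between 1.06 and 1.53 in all 6 libraries, and for Lat between 0.219 and 0.655. In KO2 and KO3 the Zap70 ratio was above that of every other library.

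The adaptor Lat (chromosome 7, 126363824 to 126369570, minus strand) had 6.51, 4.28 and 4.75 CPM in labelled WT and 10.1, 5.82 and 2.86 CPM in labelled KO. The labelled KO libraries lay on both sides of the labelled WT range, with KO1 highest and KO3 lowest. It is the 1 gene of the 10 that was not lowest in WT3. The log2 difference was 0.27 ± 0.47 (SE; edgeR adjusted p = 0.916), and it was -0.26 without KO1.

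**Figure D2:**
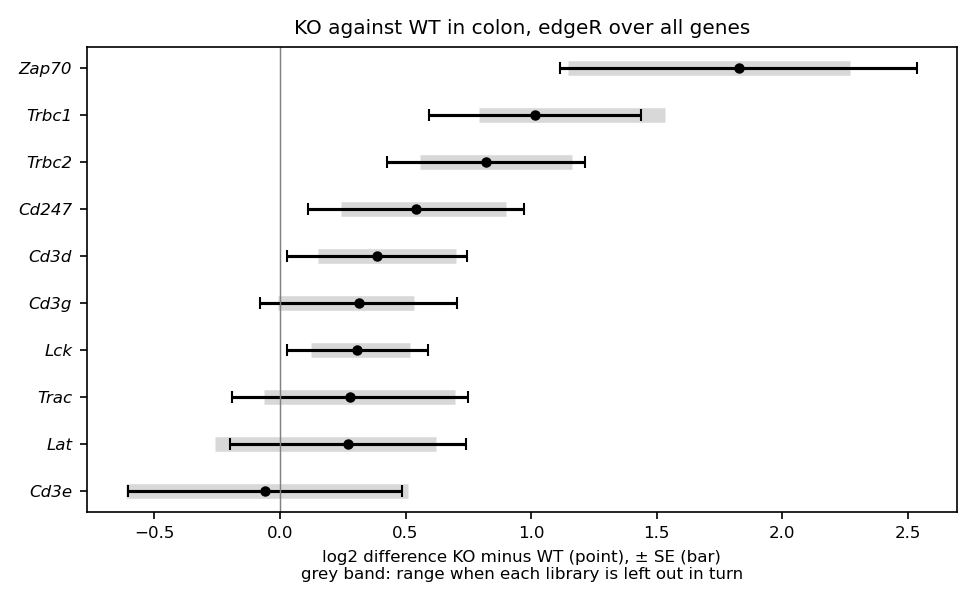
Fitted log2 difference, labelled KO minus labelled WT, of the 10 genes with its SE, and as a grey band the range when each library is left out in turn. Values run from -0.06 (Cd3e) to 1.83 (Zap70), and the bands of Cd3e, Cd3g, Trac and Lat cross 0.

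The lowest and the highest library were the same for most of the 10 genes, while the order between them varied. WT3 was the lowest library for 9 of them, against 13.8% of all tested genes, and KO1 the highest for 7, against 14.6%. KO1 was above both KO2 and KO3 for 8 of the 10, the exceptions being Trbc2 and Zap70. The summed level of the 10 was 74.5, 56.0 and 33.5 CPM in labelled WT and 85.8, 81.3 and 81.3 CPM in labelled KO. Zap70 was the largest part of the sum in KO3 (33.9 CPM), while in KO2 it had 18.5 CPM, just below Lck (19.6 CPM). Without Zap70 the sum was 67.2, 49.8 and 30.9 CPM against 80.4, 62.8 and 47.4 CPM, and the groups overlapped (means 49.3 ± 18.2 and 63.5 ± 16.5 CPM, SD, n = 3 each).

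How far each gene departed from the rest was measured as the root mean square distance over the 6 libraries between its centred log2 CPM and the mean of the other 9. Cd3d was nearest to the rest (0.126), followed by Cd247 (0.172), Lck (0.204), Cd3g (0.252), Trac (0.254), Trbc2 (0.292) and Trbc1 (0.326). Cd3e (0.536), Lat (0.573) and Zap70 (1.13) stood farther off. The range over libraries on this scale was 1.09 for Lck to 3.57 for Zap70, beside a median of 0.54 over all genes with at least 1 CPM.

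**Figure D3:**
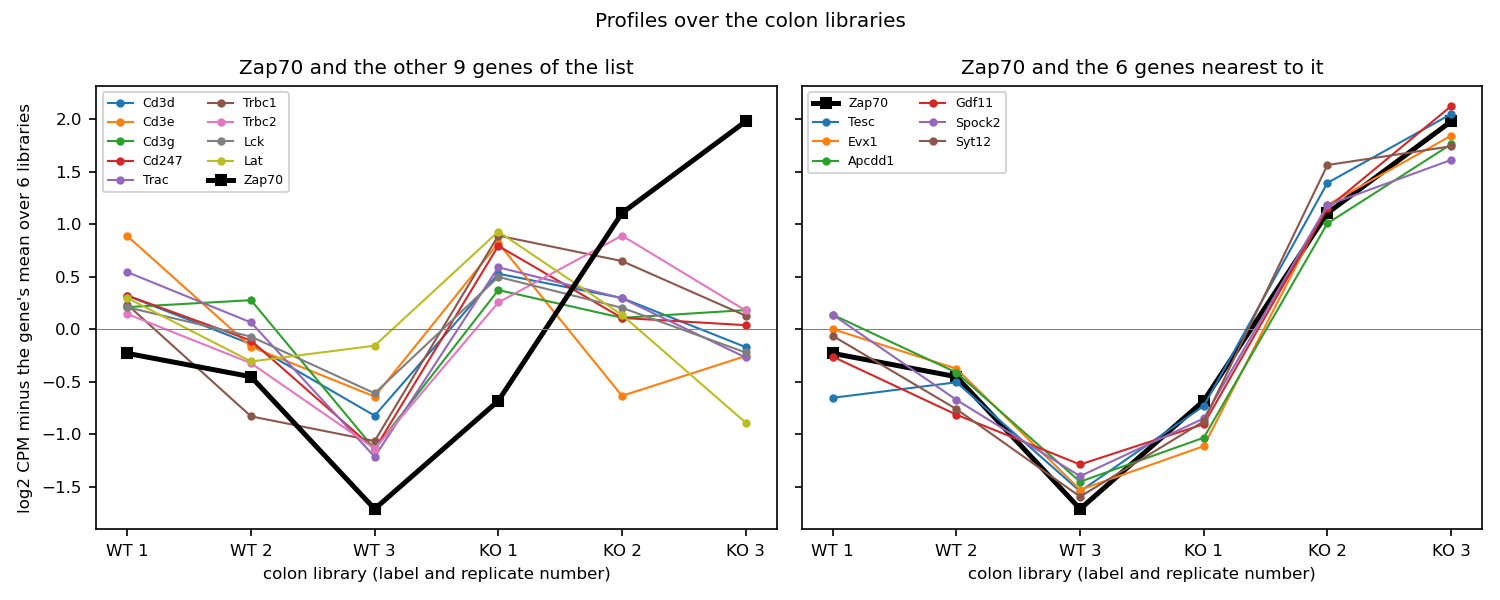
Log2 CPM of each gene minus its own mean over the 6 libraries (lines only join points of 1 gene, and libraries have no order), for the 10 genes and, in the second panel, for Zap70 with the 6 genes nearest to it. WT3 is lowest for 9 of the 10 genes, and Zap70 is set apart by KO2 and KO3.

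Within the sets of libraries given by the sex-linked genes, the direction was not the same. In the Xist-high set, labelled KO was lower than WT1 for 7 of the 10 genes, against 49.4% of all tested genes. In the other set KO1 was higher than the mean of WT2 and WT3 for 10 of 10, against 49.5% of all tested genes. Cd3e had log2 differences of -1.26 and 1.16 in these sets, Trac of -0.52 and 1.12, Lat of -0.64 and 1.12, and Zap70 of 1.74 and 0.37. The difference between the sets passed the adjusted threshold for 0 of the 10 and for 0% of all genes (edgeR interaction, smallest adjusted p = 0.168, Cd3e). At an unadjusted p under 0.05 it took 2 of the 10, Cd3e and Trbc1, against 19.4% of all genes. Since each set holds a single library of one label, a library's own level and the set cannot be told apart.

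Levels of different genes were compared per kilobase of exon, as the mean CPM per kb over the 6 libraries. Trac was highest at 8.74, followed by Trbc2 (6.06), Lck (5.98), Zap70 (4.12), Trbc1 (3.92), Cd3d (2.30), Lat (2.07), Cd3g (1.78), Cd3e (1.06) and Cd247 (0.670). Neighbours in this order were mostly not separated: Trbc2 was above Lck in 2 of 6 libraries and Zap70 above Trbc1 in 3 of 6. Cd3g was above Cd3e in 6 of 6, and the other pairs kept the order in 4 or 5 of 6. The lengths cover all annotated exons, so a gene with long alternative ends, such as Cd247, is set lower by this measure.

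The starts of the genes were searched for short motifs of transcription factor families known at T cell genes. ETS, RUNX and E-box factors act at many of these genes, and the TCF/LEF factors (Tcf7 and Lef1) are T cell regulators and effectors of WNT signalling. RefSeq promoter windows (GRCm38.p6, 250 bases before to 50 after a start, 300 in all) were matched for 7 of the 10 genes, with 10 windows, 3 of them for Zap70. Shown are the first window of Zap70, the gene with its own profile, and those of Cd3e and of the distal start of Lck for comparison. Capitals mark matches on either strand to CTTTGA (TCF/LEF), AGGAAG (ETS), TGTGGT (RUNX) and CAGGTG (an E-box), and no matches share a base.
Zap70 chr1:36761548-36761847, plus strand: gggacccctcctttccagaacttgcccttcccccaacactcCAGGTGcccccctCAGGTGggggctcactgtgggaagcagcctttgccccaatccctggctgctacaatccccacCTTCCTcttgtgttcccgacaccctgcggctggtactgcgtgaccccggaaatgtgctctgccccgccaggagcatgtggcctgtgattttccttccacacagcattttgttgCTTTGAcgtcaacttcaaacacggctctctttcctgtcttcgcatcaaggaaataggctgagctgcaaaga
Cd3e chr9:45009562-45009861, minus strand: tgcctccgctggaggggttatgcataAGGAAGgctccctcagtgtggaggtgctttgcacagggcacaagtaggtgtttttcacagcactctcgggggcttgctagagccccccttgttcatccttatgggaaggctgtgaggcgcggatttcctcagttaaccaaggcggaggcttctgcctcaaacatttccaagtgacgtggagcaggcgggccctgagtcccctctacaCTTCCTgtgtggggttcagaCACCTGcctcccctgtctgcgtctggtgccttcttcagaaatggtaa
Lck chr4:129573592-129573891, minus strand: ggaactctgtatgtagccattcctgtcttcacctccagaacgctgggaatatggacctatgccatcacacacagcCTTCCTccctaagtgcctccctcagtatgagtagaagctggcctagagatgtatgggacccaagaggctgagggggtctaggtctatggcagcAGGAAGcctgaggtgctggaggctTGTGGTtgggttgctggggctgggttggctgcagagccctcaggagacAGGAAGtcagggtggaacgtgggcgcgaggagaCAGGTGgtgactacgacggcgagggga
CTTTGA was in 3 of the 10 windows (Cd3d, Cd247 and the first of Zap70) and in 16.0% of 32851 windows of all genes. AGGAAG was in 8 of 10 and in 35.4%, TGTGGT in 3 of 10 and in 16.8%, and CAGGTG in 8 of 10 and in 20.2%. Windows of one gene are not independent, and the matches describe letters, not binding.

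The other genes of the pathway were read from a list of 56 signalling genes, of which 52 passed the filter. None passed the test in either direction, and 34 had a higher and 18 a lower mean in labelled KO, with a median log2 difference of 0.05. Among the coreceptors, Cd4 had 36.2, 26.5 and 31.5 CPM in labelled WT and 61.0, 23.3 and 15.1 CPM in labelled KO, with KO1 and KO3 at the 2 ends. Cd8a had 5.68, 3.08 and 2.38 CPM against 6.51, 2.12 and 2.18 CPM, which like Cd3e was high in WT1 and KO1. Cd8b1, too low to test, had 2.37, 0.936 and 0.750 CPM against 4.21, 0.264 and 0.681 CPM. Among the signalling genes with the smallest p, log2 differences were -0.29 ± 0.10 (Stim1, the calcium sensor of the endoplasmic reticulum), -0.22 ± 0.11 (Itpr3, a calcium release channel) and -0.09 ± 0.05 (Dgkz, which removes diacylglycerol). On the higher side they were 0.18 ± 0.10 (Plcg1, the phospholipase that binds Lat), 0.16 ± 0.09 (Ppp3cb, a calcineurin subunit), 0.81 ± 0.50 (Prkcq, protein kinase C theta) and 0.48 ± 0.31 (Lcp2, the adaptor SLP-76 that joins Lat; all SE, edgeR adjusted p = 0.829 for each). Stim1 alone had an unadjusted p under 0.05. Stim1, Itpr3, Plcg1 and Ppp3cb are expressed in many cell types besides T cells.

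The gamma-delta receptor uses other constant genes with the same CD3 chains. Its 4 tested genes, of 4 in the tables, had log2 differences of -0.00 (Trdc), -0.08 (Tcrg-C1), -0.36 (Tcrg-C2) and -0.05 (Tcrg-C4), none past the threshold. Trdc had 4.14, 1.87 and 1.38 CPM in labelled WT and 1.66, 3.17 and 2.59 CPM in labelled KO. KO1, the highest library for most of the 10 genes, was the lowest of its label for Trdc, and WT3 was again lowest of all.

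Syk, the relative of Zap70 that serves B cells, myeloid cells and epithelium, had 156.3, 195.9 and 185.8 CPM in labelled WT and 174.1, 195.7 and 174.4 CPM in labelled KO. Its log2 difference was 0.02 ± 0.10 (SE; edgeR adjusted p = 0.977), without the split seen for Zap70 in KO2 and KO3. Of the 11 genes listed around Syk, 6 had a higher and 5 a lower mean in labelled KO, and none passed. Among the higher ones were Syk, the adaptors Fcer1g (0.24) and Tyrobp (0.13), and the Src-family kinases Lyn (0.13) and Fgr (0.37). The lower ones were Hcst (-0.23), the Lat relative Lat2 (-0.06), the B cell kinase Blk (-0.16) and the B cell receptor chains Cd79a (-0.22) and Cd79b (-0.22).

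Among 14187 genes with at least 1 CPM, those with the smallest distance to the mean profile of the 10 were Ptpn7 (0.128), Themis2 (0.134), Cd53 (0.139), Csf2rb (0.141), Fgr (0.151) and Ncf1 (0.155). These 6 are genes of leukocytes in general: Ptpn7 is a phosphatase of blood-forming cells, Themis2 a signalling protein of B cells and macrophages, Fgr a Src-family kinase of myeloid cells, Cd53 a tetraspanin of most leukocytes, Csf2rb a cytokine receptor chain and Ncf1 a subunit of the phagocyte oxidase. The order depends on Zap70. With Zap70 left out of the mean, Ptpn7 (0.085), Gpr171 (0.099) and Trpm2 (0.110) were nearest. Themis2 and Csf2rb then stayed among the 10 nearest, while Cd53, Fgr and Ncf1 did not.

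The genes nearest to Zap70 were looked up after its profile had been seen. They were Tesc (0.216), Evx1 (0.217), Apcdd1 (0.238), Gdf11 (0.240), Spock2 (0.256) and Syt12 (0.263), with Lef1 (0.268) and Cd244 (0.269) next. The nearest of the other 9 genes, Trbc2, was at 0.868 and ranked 570, and Lat was the farthest at 1.50. Apcdd1, an inhibitor and target of WNT signalling, had 53.5, 36.5 and 17.8 CPM in labelled WT and 23.8, 97.7 and 164.8 CPM in labelled KO. Evx1, a homeobox gene, had 27.1, 20.9 and 9.38 CPM against 12.5, 61.5 and 97.1 CPM. Lef1 had 7.45, 6.29 and 2.50 CPM against 4.85, 27.2 and 47.1 CPM. Cd244 had 9.82, 6.82 and 4.75 CPM against 7.41, 20.2 and 57.5 CPM. All have the order of Zap70, with KO3 highest, KO2 next and the other 4 libraries below, and none passed the test (edgeR adjusted p = 0.829 for each). Tcf7, a T cell factor that is also expressed in WNT-active epithelium, had 46.0, 36.2 and 22.9 CPM against 40.5, 67.6 and 109.2 CPM, the same order at the top. Apcdd1, Evx1, Gdf11, Spock2 and Syt12 are not genes of the T cell receptor pathway. From which cells the Zap70 counts of KO2 and KO3 came was not tested.

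Markers of other cells were listed in the same way, and none passed the test. No listed gene found in the tables was at 0 in all 6 libraries. Genes at 0 in at least 1 library were 3 natural killer and innate lymphoid genes, 2 platelet genes, 1 follicle gene and 1 of the signalling genes. Of 18 further T cell genes, 13 had a higher and 5 a lower mean in labelled KO (median log2 difference 0.32), with Bcl11b at -0.08 and Tcf7 at 1.05. Of 10 B and plasma cell genes 2 were higher and 8 lower (median -0.22), led by Jchain (0.18) and Cd22 (-0.28). Their summed level was 426, 393 and 194 CPM in labelled WT and 480, 288 and 198 CPM in labelled KO. WT3 and KO3 were both low for B cells, and KO1 was highest. The follicle list, of which 7 genes were tested and 5 were lower (median -0.24), summed to 163, 133 and 58.6 CPM against 159.7, 100.3 and 60.7 CPM, with Cr2 at -0.24 and Cxcl13 at -0.17. Its part in the levels of the 10 genes was not tested.

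Mast cell genes summed to 97.7, 139.5 and 60.8 CPM in labelled WT and 71.8, 149.6 and 173.7 CPM in labelled KO, with KO3 highest and WT3 lowest, as for Zap70, but with WT2 close to KO2. Of 9 tested, 7 had a higher mean in labelled KO (median 0.43), with Mcpt1 at 0.33 and Mcpt2 at 0.51. Of the 6 tested natural killer and innate lymphoid genes of 14, 4 were higher and 2 lower, with Kit at 0.23. All 9 macrophage and neutrophil genes had a higher mean in labelled KO (median 0.12; Csf1r 0.06, Lyz2 0.12). The 3 neutrophil genes of that list, named after their values were seen, had the largest differences in it. S100a8 had 7.92, 2.54 and 0.500 CPM in labelled WT and 0.894, 18.8 and 16.5 CPM in labelled KO (log2 difference 1.71 ± 1.204, SE). S100a9 had 13.6, 2.67 and 0.875 CPM against 1.79, 23.0 and 26.0 CPM (1.56 ± 1.197). Csf3r had 14.9, 5.35 and 3.88 CPM against 8.81, 17.9 and 24.7 CPM (1.08 ± 0.61). Like Zap70, all were highest in KO2 and KO3, next in WT1 and lowest in WT3. Their part in the Zap70 result was not tested. The 3 tested platelet genes were lower (median -0.05; Pf4 -0.09, Gp1bb -0.05).

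Of the main tissue layers, epithelial markers summed to 1859 to 2186 CPM over the 6 libraries (median log2 difference 0.0076; Muc2 0.07, Cdh1 0.03). Muscle markers summed to 1161 to 1372 CPM in 5 libraries and 816 CPM in KO3, and all 6 had a lower mean in labelled KO (median -0.15; Myh11 -0.35, Des -0.17). KO3 thus had less muscle marker signal (in CPM) beside its high Zap70. The part of this in the result was not tested.

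**Figure D4:**
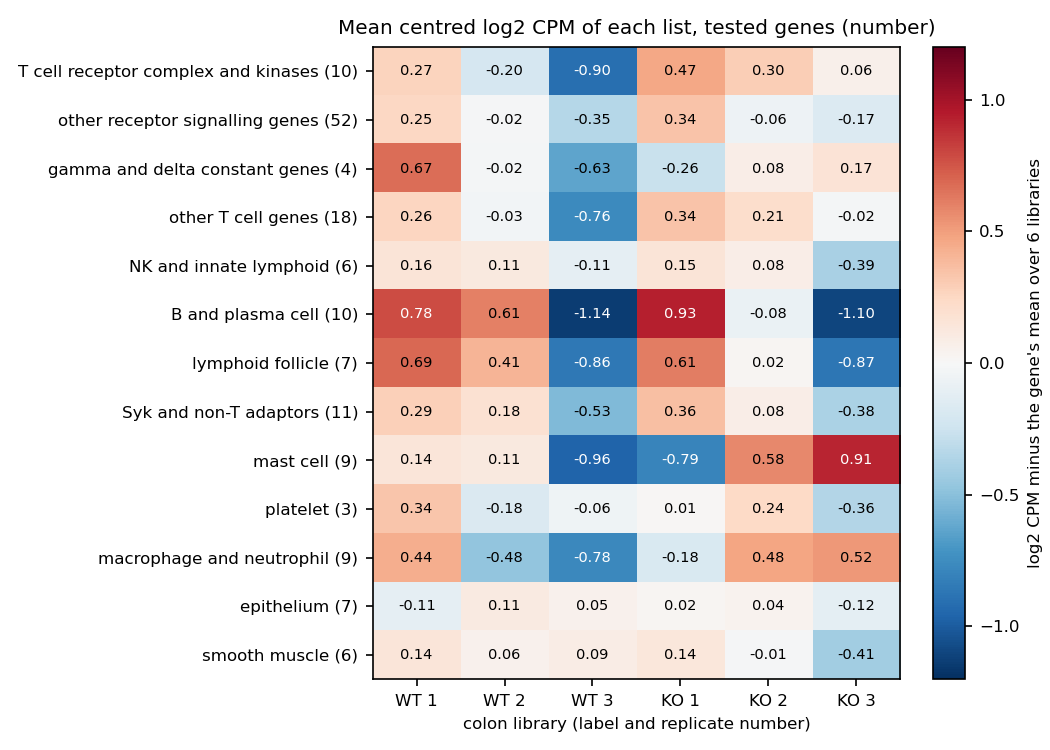
Mean centred log2 CPM of the tested genes of each list (rows) in the 6 colon libraries (columns). The 10 genes are lowest in WT3 (-0.90) and highest in KO1 (0.47), while the B cell list is low in both WT3 (-1.14) and KO3 (-1.10).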

How the data were processed

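RNA sequencing of 6 mouse colons (3 labelled WT, 3 labelled S1PR4 KO) was used. Groups follow the sample titles and genotype labels. The deposited values are raw read counts per Ensembl gene, whole numbers with no normalisation, per the file headers. Per the submitters' processing notes the authors used STAR, TopHat2, RSEM, HTSeq and DESeq2 with mm10 and GRCm38, with no versions or roles. Strand, multi-mapped reads and duplicate removal are not given in the sources used here, so reads of overlapping genes and near-copies may be misassigned. The colon tables list 30263 genes, of which 30212 IDs (99.8%) are in GENCODE vM21 on GRCm38.

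Genes were filtered with filterByExpr, scaled by TMM and tested by the robust quasi-likelihood method of edgeR 4.0.16 in R 4.3.3, with Benjamini-Hochberg adjustment over 17195 genes and a threshold of 0.05. The log2 differences are fitted values with SE. CPM divide each count by the library total times its TMM factor. Centred profiles use log2 CPM with a prior count of 2 (the plot of profiles uses none). DESeq2 1.42.0, limma-voom (limma 3.58.1), other scalings and filters, covariates and leaving out each library were tried. The test was checked on simulated data. No library repeated another: the chi-square per degree of freedom between libraries of one group was 5.58 or more. The labels speak of triplicates without naming separate mice. Sex-linked genes differ within each label, so each group holds more than 1 mouse, and p-values measure the spread between these samples. Reads carry no molecular identifiers.

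The 10 genes, the 13 gene lists and the rules were chosen with earlier results of these data known. Named are the 10 genes, Cd4, Cd8a, Cd8b1 and the 8 signalling genes with the smallest p, all tested gamma-delta and Syk genes, the 2 most abundant genes of each other list, the 6 genes nearest in profile, S1pr4, Xist, Ddx3y and the 3 most counted variable segments. Genes near Zap70, with Lef1 and Cd244, were named after their values were seen. So were the genes nearest to the mean without Zap70, the neutrophil genes and the genes that overlap others. Of the genes the rule takes, 3 are not reported here. The planned test of sorted CD8+ cells was not made, as none of the 10 genes is in those tables.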

Additional observations from a re-analysis of the deposited data

How the results depend on the processing

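None of the 10 genes passed the adjusted threshold under any alternative run. With DESeq2, 18 genes in all passed, against 0 with edgeR. The median log2 difference of the 10 was 0.35, and 0.82 with limma-voom with quality weights; leaving out each library in turn it ran from 0.19 to 0.70, and the counts of genes and of members called stayed at 0. Taking Trbc1 and Trbc2 as 1 gene, or leaving out Zap70 or Cd247 (the last 2 chosen after seeing the data), gave 0.31 each. Signs turned only when a library was left out: Cd3e was 0.51 without WT1, 0.21 without KO2 and 0.10 without KO3 (range -0.61 to 0.51), Cd3g -0.0056 (to 0.54) and Trac -0.065 (to 0.70) without WT3, and Lat -0.26 without KO1 (to 0.62). The cause was not tested. Zap70 ran from 1.15 to 2.27. Of the values recomputed under alternatives, 171 kept their direction and side of the threshold (or stayed within 1 SD), 2 moved and 6 turned. A minimum mean of 50 counts left 3 of the 10 (Trac, Zap70 and Lck). The interaction with the sex-linked status was also added after seeing the data.

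The labels give both groups replicate numbers. Over all genes, same-numbered libraries did not deviate together (correlations -0.04, 0.21 and -0.23), but they also differed in sex-linked status. These correlations cannot decide whether the numbers pair samples. In both labels Cd3d, Cd247, Trac, Trbc1 and Lck fell at each step from replicate 1 to replicate 3. Cd3e, Cd3g, Trbc2, Zap70 and Lat did not fall at each step in both labels. Replicate 3 was nevertheless below replicate 1 in both labels for each of the 10 except Zap70, which was higher in KO3 than in KO1. With a replicate block, 0 genes passed and the median of the 10 was 0.42. The block lowered the SE of each of the 10 except Zap70. For Lck the SE went from 0.28 to 0.13, for Cd3e from 0.55 to 0.27 and for Trac from 0.47 to 0.26. For Zap70 it rose from 0.71 to 0.92.

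Depth limits these genes: Cd3d, Cd3g, Cd247, Trbc1 and Trbc2 have 10 to 56 counts per library, Cd3e has 19 to 61 and Lat 21 to 79. The other settings meant for the CD8 tables were not run, since none of the 10 genes is listed there.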
